A study of Mus musculus with 10 samples.

Results

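Collagens other than type IV were taken as every probe set of the Affymetrix MOE430A and MOE430B arrays annotated to exactly 1 gene symbol of the collagen form, without Col4a1 to Col4a6. This gave 70 probe sets of 36 genes among 45265 probe sets, with 49 probe sets (30 genes) on MOE430A and 21 (15 genes) on MOE430B. The RNA came from mouse embryos at embryonic day 5.5 from B6SJLF1×CerlP-GFP matings, which received no treatment, and all samples share that cross. CerlP-GFP is named in the labels as the source of a fluorescent anterior visceral endoderm, the extraembryonic layer that patterns the anterior side of the epiblast. Ad fragments held this fluorescent layer with the epiblast beneath it. Pp fragments held proximal visceral endoderm and epiblast from the other side of the embryo, up to the border with the extraembryonic part. The last kind of sample was the whole embryo. Each array type had 2 Ad arrays (replicates 1 and 2 on MOE430A, 3 and 4 on MOE430B), 2 Pp arrays numbered alike and 1 whole-embryo array. The RNA was linearly amplified, and the labels do not say that replicates came from separate embryos, so p-values measure the spread between these samples.

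Collagens are extracellular matrix proteins whose chains wind around each other into a stiff helix, and they are secreted mostly by mesenchymal cells. Fibril-forming collagens such as types I, III and V build the cables of connective tissue, and fibril-associated collagens decorate them. Type VI collagen makes beaded filaments around cells, types XV and XVIII (multiplexins) lie at basement membranes, and the transmembrane collagens stay in the cell membrane. At this stage the embryo is made of epithelia resting on basement membrane, before mesoderm has formed, and it is enclosed by the uterine decidua, a stromal tissue of the mother. The promoters below are shown because their genes carry the results that follow, Col1a2, Col3a1 and Col6a1 as genes with a higher signal in the whole embryo, Col18a1 as a gene with a higher signal in the fragments, and Col23a1 as the collagen with the widest gap between Ad and Pp. Each is the 250 bases before the gene start in RefSeq (GRCm38.p6), written along the gene's strand, with 3 motifs of general promoters in capitals. These are the TATA box core TATAAA, the box named after its letters CCAAT and the Sp1-type core GGGCGG, each on either strand, so that the last may read as CCGCCC and the box as ATTGG.
Col1a2, chr6:4505368-4505617, plus strand: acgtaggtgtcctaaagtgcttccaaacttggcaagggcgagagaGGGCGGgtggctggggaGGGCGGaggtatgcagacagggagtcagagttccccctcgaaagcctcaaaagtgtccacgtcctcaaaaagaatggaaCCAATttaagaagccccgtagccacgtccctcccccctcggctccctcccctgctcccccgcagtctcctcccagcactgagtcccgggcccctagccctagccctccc
Col3a1, chr1:45311288-45311537, plus strand: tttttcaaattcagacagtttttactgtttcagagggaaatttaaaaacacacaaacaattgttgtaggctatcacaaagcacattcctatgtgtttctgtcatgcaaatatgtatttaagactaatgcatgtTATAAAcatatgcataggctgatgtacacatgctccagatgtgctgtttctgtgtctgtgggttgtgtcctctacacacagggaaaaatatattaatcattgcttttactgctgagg
Col6a1, chr10:76726045-76726294, minus strand: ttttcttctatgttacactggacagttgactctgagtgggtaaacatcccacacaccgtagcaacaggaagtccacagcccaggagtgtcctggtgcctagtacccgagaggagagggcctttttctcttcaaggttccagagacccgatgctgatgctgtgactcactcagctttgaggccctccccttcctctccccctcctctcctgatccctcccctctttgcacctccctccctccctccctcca
Col18a1, chr10:77166531-77166780, minus strand: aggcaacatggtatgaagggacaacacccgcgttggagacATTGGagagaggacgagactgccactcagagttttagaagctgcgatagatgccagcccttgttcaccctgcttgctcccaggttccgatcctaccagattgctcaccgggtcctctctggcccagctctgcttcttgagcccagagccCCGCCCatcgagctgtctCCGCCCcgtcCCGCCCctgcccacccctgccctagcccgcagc
Col23a1, chr11:51289670-51289919, plus strand: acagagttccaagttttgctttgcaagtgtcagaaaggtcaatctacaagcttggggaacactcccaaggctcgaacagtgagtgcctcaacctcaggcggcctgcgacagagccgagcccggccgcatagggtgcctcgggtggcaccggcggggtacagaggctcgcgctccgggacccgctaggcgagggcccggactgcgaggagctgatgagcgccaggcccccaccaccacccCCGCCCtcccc

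None of the 3 motifs was present in all 5 windows. Col1a2 held GGGCGG at 205 and 188 bases before the start and CCAAT at 109. Col3a1 held TATAAA at 117 bases before the start, in a window of 35.2% GC, and the Col6a1 window held none of the 3. Col18a1, in the more upstream of its windows, held GGGCGG on the opposite strand at 61, 43 and 33 bases before the start and CCAAT on the opposite strand at 210. The Col23a1 window held GGGCGG on the opposite strand at 11 bases before the start. RefSeq promoters were matched for 28 of the 36 genes, as 31 windows. Of these, 16.1% held TATAAA, 32.3% CCAAT and 58.1% GGGCGG, against 12.4%, 33.9% and 32.7% of the 32851 promoter windows of the same length. The median GC content was 58.8% in the collagen windows and 52.4% in all of them.

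The values are deposited MAS5 signal intensity in arbitrary units. The test ran on log2(signal + pseudocount), with a pseudocount of 247 on MOE430A and 10.5 on MOE430B, so a fold is on that scale and understates the change of dim probe sets. A probe set passed the filter, and was tested, when its mean log2 over the 5 arrays lay above that of a signal of 464 (MOE430A) or 37.2 (MOE430B), which kept 13575 and 13506 probe sets. Of the collagens, 29 of 49 probe sets passed on MOE430A (22 genes) and 11 of 21 on MOE430B (10 genes), or 40 of 70 in all. On MOE430A, 5 of the 29 had a fragment mean below the filter signal and so passed through the whole embryo. A probe set was called when its two-sided limma p, adjusted by Benjamini-Hochberg over all tested probe sets of that array type, was under 0.05. The median signal of an array was 590 to 644 (MOE430A) or 56.8 to 61.0 (MOE430B). The markers of the labelled cell types were measured: on MOE430A 7 of 7 anterior visceral endoderm, 10 of 10 visceral endoderm and 5 of 6 epiblast markers passed the filter. Of the anterior visceral endoderm markers 3 were called higher in Ad than in Pp (0.169% of all tested probe sets were called), but 0 without Ad replicate 1, 1 without Ad replicate 2 and 7 without either Pp array. Against the whole embryo 3 visceral endoderm and 3 epiblast markers were called higher in the fragments (4.6% of all). The first of these counts was 6 without Pp replicate 1, and the second was 1 without Ad replicate 1 and 0 without Ad replicate 2.

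The main contrast among the collagens lay between the dissected fragments and the whole embryo. On MOE430A, 8 collagen genes (11 probe sets) were lower in the fragments: Col1a1, Col1a2, Col3a1, Col5a2, Col14a1, Col6a1, Col6a2 and Col6a3. Only Col18a1, by both of its probe sets, was called higher in the fragments there. On MOE430B the short-chain collagen Col8a2 was lower in the fragments, by 2.15 on the log2 scale. In all, 13 of 29 tested collagen probe sets were called on MOE430A, against a background of 9.78% of all tested probe sets (5.19% lower and 4.6% higher in the fragments). Of the 13, 4 had all fragments below the filter signal, so they were tested only because the whole embryo was high and had to differ: Col1a1, both probe sets of Col5a2 and 1 of Col14a1. They are given as levels and lower bounds, with no p, and the count of 13 is a description. Among the 24 collagen probe sets with a fragment mean at or above the filter signal, 9 were called, 7 of them lower in the fragments (6 genes, without Col1a1 and Col5a2), against 9.35% called and 4.69% lower over all such probe sets. On MOE430B the count was 1 of 11, against 2.21% (1.81% lower and 0.407% higher). Without centring of the arrays, the calls over all MOE430A probe sets were 966 lower and 338 higher, against 704 and 624 with it. Fewer cells of a type and less RNA per cell cannot be told apart in such bulk samples. The whole embryo was a single array on each type and was assumed to vary like the fragments.

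**Figure D1:**
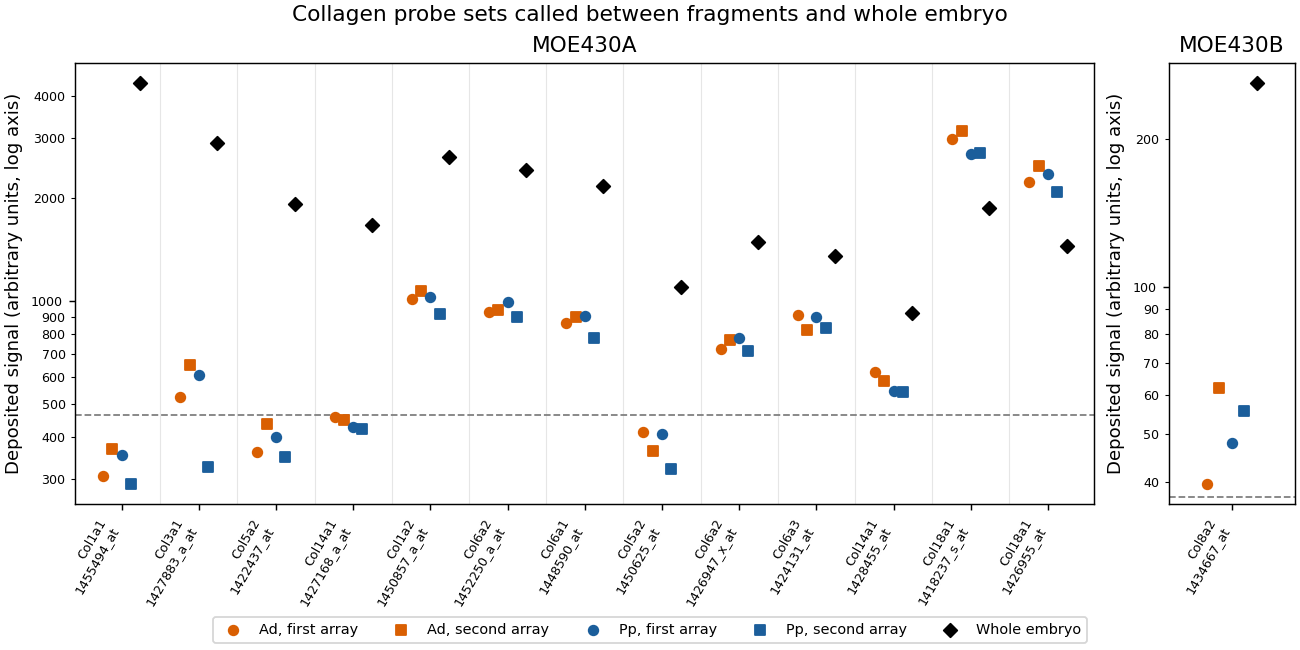
Deposited signal (arbitrary units, log axis) of each collagen probe set called between fragments and whole embryo, with Ad arrays in orange, Pp arrays in blue (circle and square for the lower and higher replicate number) and the whole embryo as a black diamond; the dashed line is the filter signal. The diamond lies above all 4 fragments except for both Col18a1 probe sets, where it lies below them.

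Fibril-forming collagens come first. Col1a1, a chain of type I collagen, the main collagen of connective tissue, had a signal of 307 and 369 in Ad, 353 and 290 in Pp and 4360 in the whole embryo (probe set 1455494_at). All 4 fragments were below the filter signal and the whole embryo was at least 9.39-fold above it. The other Col1a1 probe set, 1423669_at, did not pass the filter, but it had the same order, with 319 to 385 in the fragments against 861 in the whole embryo.

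Col1a2, the partner chain of Col1a1, had 1015 and 1071 in Ad, 1026 and 919 in Pp and 2650 in the whole embryo (1450857_a_at). The fragments lay close together at 1008 ± 63.7 (SD, n = 4), and the whole embryo was 2.19-fold higher (limma adjusted p = 0.0015). A dimmer Col1a2 probe set that did not pass the filter, 1423110_at, read 286 to 342 in the fragments against 983 in the whole embryo. The Col1a2 probe set on MOE430B, also below the filter, read 21.4 to 32.5 in the fragments against 17.1 in the whole embryo, so it did not share that order.

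Col3a1, the collagen of fine fibrils in soft tissues, had 523 and 650 in Ad, 608 and 326 in Pp and 2910 in the whole embryo (1427883_a_at). The whole embryo was 3.91-fold above the fragments (log2 difference SE 0.212, limma adjusted p = 0.00604), and Pp replicate 2 was the lowest array. Its other probe set, 1427884_at, did not pass the filter and read 117 to 147 in the fragments against 420 in the whole embryo. Col5a2, a chain of type V collagen that helps to start fibrils, lies next to Col3a1 on chromosome 1 in the RefSeq order of genes. Its probe set 1422437_at read 361 and 437 in Ad, 400 and 349 in Pp and 1927 in the whole embryo, at least 4.15-fold above the filter signal. Its probe set 1450625_at read 321 to 413 in the fragments against 1099 in the whole embryo, at least 2.37-fold above it. For both genes the whole embryo lay above every fragment, as it did for 36.8% of all tested probe sets.

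The remaining fibril-forming collagens on MOE430A did not pass the test. Col5a1, the partner chain of Col5a2, read 775 and 785 in Ad, 656 and 715 in Pp and 891 in the whole embryo by its brightest probe set (1434479_at, log2 difference -0.14, limma adjusted p = 0.320). Another Col5a1 probe set, 1416740_at, read 416 to 483 in the fragments against 654 in the whole embryo, at least 1.41-fold above the filter signal. Its fragment mean lay below that signal, so it passed through the whole embryo. It was not called and is given as a level, with no p. Col2a1, the main collagen of cartilage, read 541, 482, 505 and 506 in the fragments against 554 in the whole embryo. Col11a2, which occurs with it in cartilage fibrils, read 543, 472, 556 and 452, and 495 in the whole embryo, inside the range of the fragments. Col5a3, a further type V chain, read 631 and 571 in Ad, 523 and 372 in Pp and 522 in the whole embryo. Col11a1 did not pass the filter, nor did Col24a1 and Col27a1 on MOE430B. So 5 of 12 tested fibril-forming probe sets on MOE430A were called, all lower in the fragments, against 5.19% of all tested probe sets. They came from 4 of the 8 genes with a tested probe set. For Col1a1 and Col5a2 this was fixed in advance, as they were tested only because the whole embryo was high. Only for Col1a2 and Col3a1 were the fragments measured above the filter signal on average (4.69% of all such probe sets were called lower). The median log2 difference over all 17 probe sets of the class was -0.29, against 0.06 over all probe sets of that array.

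Type VI collagen was called lower in the fragments in each of its 3 genes on MOE430A. Of all probe sets with a fragment mean at or above the filter signal, as here, 4.69% were called lower. Col6a1 read 861 and 901 in Ad, 904 and 779 in Pp and 2180 in the whole embryo, 2.07-fold above the fragments (limma adjusted p = 0.00249). Its neighbour on chromosome 10, Col6a2, read 929 and 939 in Ad, 992 and 900 in Pp and 2420 in the whole embryo, 2.13-fold above them (1452250_a_at, limma adjusted p = 0.00133). The second Col6a2 probe set, 1426947_x_at, read 712 to 781 in the fragments against 1495 in the whole embryo (1.66-fold, limma adjusted p = 0.00683). Col6a3, the longest of these chains, read 911 and 822 in Ad, 897 and 831 in Pp and 1354 in the whole embryo (1.36-fold, limma adjusted p = 0.0293). In each of the 4 probe sets the whole embryo lay above every fragment, as it did for 36.8% of all tested probe sets. The class median was -0.89. The Col6a3 call was lost without Ad replicate 1 (adjusted p = 0.0967), without Ad replicate 2 (0.133) and with the replicate number as a block (0.0503), and that of 1426947_x_at without Ad replicate 1 (0.0522).

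Of the related chains on MOE430B, Col6a4 read 40.3 and 58.6 in Ad, 18.5 and 50.3 in Pp and 34.7 in the whole embryo. Col6a5 read 44.8, 41.1, 26.0 and 50.6 in the fragments against 29.2 in the whole embryo. Neither was called, and the whole embryo lay within the range of the fragments for both.

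Among the fibril-associated collagens 2 of 7 tested probe sets were called on MOE430A, both lower in the fragments, against 5.19% of all tested probe sets. Both belonged to Col14a1, 1 of 6 tested genes, and 1 of them was tested only because the whole embryo was high. Col14a1, which binds to the surface of fibrils, read 457 and 447 in Ad, 426 and 420 in Pp and 1670 in the whole embryo, at least 3.60-fold above the filter signal (1427168_a_at). Its second probe set, 1428455_at, read 541 to 622 in the fragments against 922 in the whole embryo (1.35-fold, limma adjusted p = 0.0234). That call was lost without Ad replicate 1 (adjusted p = 0.0980), without Ad replicate 2 (0.124) and with the replicate block (0.0556). The Col14a1 probe set on MOE430B read 38.3 and 40.2 in Ad, 38.3 and 34.1 in Pp and 36.9 in the whole embryo. It lay near the filter signal of 37.2 in every array and did not share the order of the probe sets on MOE430A.

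Col22a1, a collagen of tissue junctions, disagreed between probe sets. Probe set 1453084_s_at read 222 and 209 in Ad, 204 and 232 in Pp and 2851 in the whole embryo, at least 6.14-fold above the filter signal. It was not tested because its mean over the 5 arrays did not pass the filter. The brighter probe set 1429280_at read 485 and 687 in Ad, 579 and 420 in Pp and 794 in the whole embryo (limma adjusted p = 0.271), and on MOE430B the gene read 421, 413, 372 and 437 in the fragments against 424 in the whole embryo. Only the first of these had a gap several times wider than the spread of the fragments.

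The other fibril-associated genes that were tested were not called. Col9a1, a cartilage collagen, read 793 and 728 in Ad, 724 and 728 in Pp and 873 in the whole embryo. Col9a3, another type IX chain, read 810, 805, 831 and 798, and 815 in the whole embryo. Col16a1 read 1361 and 1241 in Ad, 1346 and 1371 in Pp and 1478 in the whole embryo. Col20a1 read 936 and 822 in Ad, 876 and 860 in Pp and 749 in the whole embryo, the highest difference among the collagens not called on MOE430A (log2 0.25, limma adjusted p = 0.124). Its probe set on MOE430B lay the other way, with 141, 154, 94.1 and 179 in the fragments against 207 in the whole embryo (log2 difference -0.55, limma adjusted p = 0.398). Col12a1, a collagen of dense connective tissue, read 46.0 and 63.5 in Ad, 37.9 and 36.3 in Pp and 32.9 in the whole embryo by its tested probe set on MOE430B (1440101_at). Its other probe sets did not pass the filter and disagreed. On MOE430B 1434411_at read 5.31 to 6.02 in the fragments against 21.35 in the whole embryo, and 1445751_at 1.76 to 8.28 against 16.71. On MOE430A 1427391_a_at read 257 to 288 against 221. The class median on MOE430A was 0.08 over all 17 probe sets, near the median of the array.

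Col18a1, a heparan sulfate collagen of basement membranes whose tail is endostatin, was the 1 collagen with a higher signal in the fragments by the test. Probe set 1418237_s_at read 2999 and 3157 in Ad, 2700 and 2722 in Pp and 1882 in the whole embryo. The fragments were 1.56-fold above the whole embryo (log2 0.64, SE 0.0770, limma adjusted p = 0.00897). Probe set 1426955_at read 2235 and 2487 in Ad, 2363 and 2091 in Pp and 1450 in the whole embryo (1.58-fold, limma adjusted p = 0.0176). Every fragment lay above the whole embryo in both, as in 22% of all tested probe sets. The calls were lost without Ad replicate 1 (adjusted p = 0.0537 and 0.0644) and without Ad replicate 2 (0.0643 and 0.0881), while the log2 differences stayed between 0.62 and 0.70. Col15a1, the other multiplexin, read 804 and 768 in Ad, 770 and 804 in Pp and 830 in the whole embryo, with no call.

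**Figure D2:**
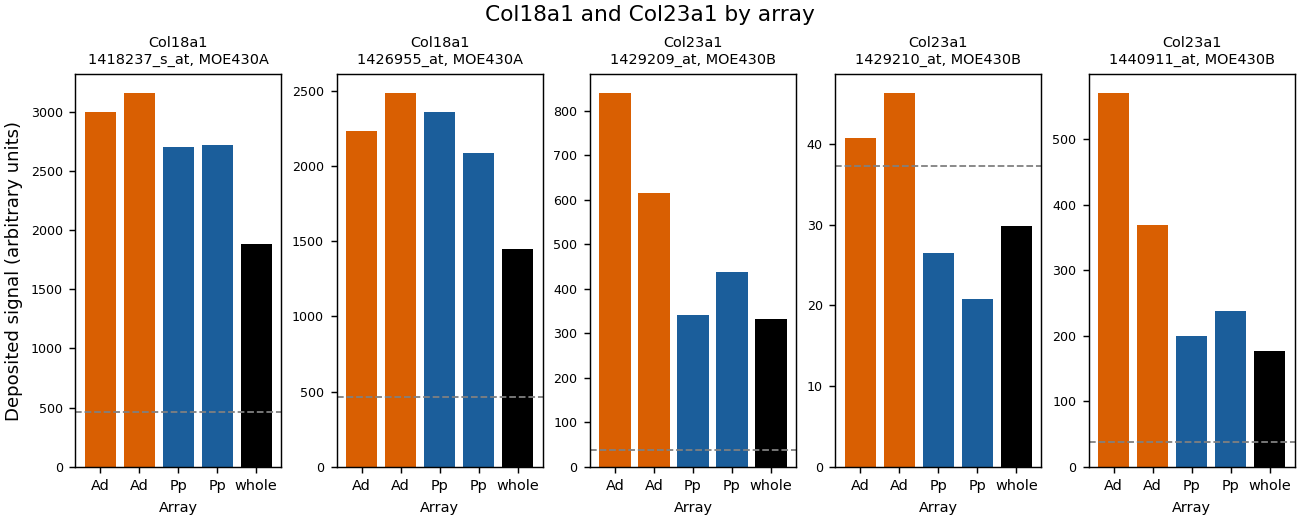
Deposited signal (arbitrary units, bars from 0) per array for both Col18a1 probe sets on MOE430A and the 3 Col23a1 probe sets on MOE430B, in the order Ad, Ad, Pp, Pp, whole embryo, with the filter signal dashed. All fragments exceed the whole embryo for Col18a1, and both Ad arrays exceed both Pp arrays for Col23a1.

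Of the other classes, 1 further gene was called in the same comparison. Col8a2, a short-chain collagen of network-forming sheets, read 39.5 and 62.1 in Ad, 48.1 and 55.7 in Pp and 261 in the whole embryo on MOE430B, a 4.45-fold gap (limma adjusted p = 0.00636). Its partner chain Col8a1 and Col10a1, the collagen of hypertrophic cartilage, did not pass the filter. Col7a1, which forms the anchoring fibrils of skin, read 1076 and 955 in Ad, 999 and 936 in Pp and 1061 in the whole embryo. Col25a1, a transmembrane collagen, read 1141, 1106, 1019 and 1116 in the fragments against 1161 in the whole embryo on MOE430A. Col26a1 read 621, 603, 593 and 571 in the fragments against 655 in the whole embryo there, and 52.5, 40.7, 33.9 and 37.6 against 38.9 on MOE430B. The transmembrane genes Col13a1 and Col17a1 did not pass the filter.

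Over all 49 collagen probe sets on MOE430A, the log2 difference was above 0 for 27 and below 0 for 22, with a median of 0.02. The 16 tested and not called ran from -0.33 to 0.25. In the deposited signal, the whole embryo lay above all 4 fragments for 26 of 49 probe sets, against 35.3% of all probe sets of that array, and below all 4 for 9 of 49, against 21.3%. On MOE430B it lay above them for 5 of 21 (21.9% of all) and below them for 4 of 21 (25.3% of all). The called genes were chains of types I, III, V, VI, VIII, XIV and XVIII.

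**Figure D3:**
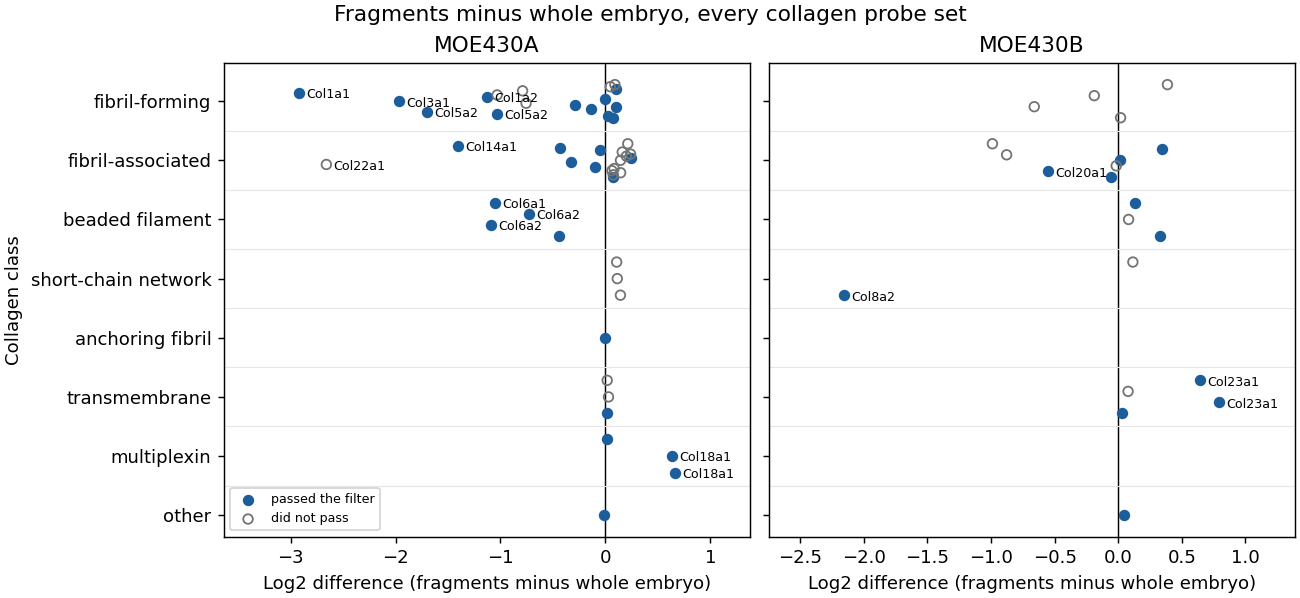
Log2 difference, fragments minus whole embryo, of every collagen probe set by class, MOE430A on the left and MOE430B on the right (filled points passed the filter, open points did not; the axes differ in range). Points left of 0 are lower in the fragments: Col3a1 lies at -1.97 and Col8a2 at -2.15, while Col18a1 lies at 0.64 and 0.66. The points of Col1a1, Col5a2, Col22a1 and the lower Col14a1 value have fragments below the filter signal, so their positions depend on the pseudocount.

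Between Ad and Pp no collagen was called. On MOE430A 0 of 29 tested probe sets passed by limma, and 0 had an unadjusted p under 0.05, against a background of 0.169% called (23 of 13575) and 1593 with an unadjusted p under 0.05. On MOE430B 0 of 11 passed, against 0.111% called (15 of 13506), and 3 had an unadjusted p under 0.05, against 1400 over all probe sets. On MOE430A the differences of the tested collagens ran from -0.12 (Col5a1, 1416741_at) to 0.23 (Col5a3, 1425984_at), with standard errors of 0.0638 to 0.190. The median over all 49 probe sets was -0.06, against -0.04 over all probe sets. Both Ad arrays lay above both Pp arrays for 11 of 49 collagen probe sets (28.4% of all probe sets did) and below them for 4 (12.6% of all). On MOE430B these counts were 7 of 21 (24.9% of all) and 2 of 21 (14.4% of all).

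Among the collagens called between fragments and whole embryo, those with fragments above the filter signal had the following Ad minus Pp values. The log2 difference was 0.01 for Col1a2, 0.03 for Col14a1 (1428455_at), -0.01 for Col6a1, -0.08 for Col6a2 (1452250_a_at) and -0.07 for Col6a3. The Col18a1 differences were 0.10 and 0.01. For Col1a1, Col5a2 and Col14a1 (1427168_a_at) both Ad and Pp lay below the filter signal, so no difference between them was measured. For Col3a1 the difference of 0.18 rested on 1 array: with Pp replicate 2 left out it was -0.10 (limma adjusted p = 0.656), and with Pp replicate 1 left out it was 0.46 (adjusted p = 0.0187). Col5a3 (1425984_at) depended on the same array, with 0.08 without Pp replicate 2 and 0.38 without Pp replicate 1 (adjusted p = 0.0237). In that array the summed signal of 6 extraembryonic ectoderm markers was 12576, against 6623 to 7100 in the other fragments and 14395 in the whole embryo, and its part in these values was not tested.

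Col23a1, a transmembrane collagen that can be shed from the cell surface, had the widest gap between Ad and Pp. Probe set 1440911_at read 571 and 370 in Ad, 199 and 238 in Pp and 177 in the whole embryo on MOE430B. Ad was 1.95-fold above Pp (log2 0.97, SE 0.225), with an unadjusted p of 0.00422 and a limma adjusted p of 0.361, so the difference did not pass the test. Probe set 1429209_at read 840 and 615 in Ad, 342 and 437 in Pp and 331 in the whole embryo (1.74-fold, limma adjusted p = 0.372). A dim probe set, 1429210_at, did not pass the filter and read 40.8 and 46.3 in Ad, 26.6 and 20.8 in Pp and 29.9 in the whole embryo. In all 3 probe sets both Ad arrays lay above both Pp arrays, as they did for 24.9% of all probe sets on MOE430B. These probe sets read the same gene on the same arrays. Their log2 difference stayed above 0 under all 14 alternatives, none of which called it, with lowest adjusted p of 0.149 and 0.134 for the tested probe sets. Pooled fragments were not called against the whole embryo for Col23a1 either (limma adjusted p = 0.194 and 0.229).

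Col25a1 on MOE430B went the other way, with 40.4 and 42.3 in Ad, 64.1 and 50.6 in Pp and 47.1 in the whole embryo (log2 difference -0.46, limma adjusted p = 0.439). Its probe set on MOE430A gave -0.01. Type IV collagens, the network collagens of basement membranes, were set beside them. Col4a1 read 4343 and 4149 in Ad, 2985 and 3392 in Pp and 6144 in the whole embryo (1452035_at), and Col4a2 read 2255 and 1897, 1291 and 1445, and 3341. Their log2 differences between Ad and Pp were 0.32 and 0.45, neither of them called (limma adjusted p = 0.316 and 0.234), and another Col4a1 probe set (1426348_at) gave 0.01. Both Col4a1 and Col4a2 were called lower in the fragments than in the whole embryo (limma adjusted p = 0.0176 and 0.0131). Among the fibril-forming chains with measured fragments, Col1a2 and Col3a1 were too.

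**Figure D4:**
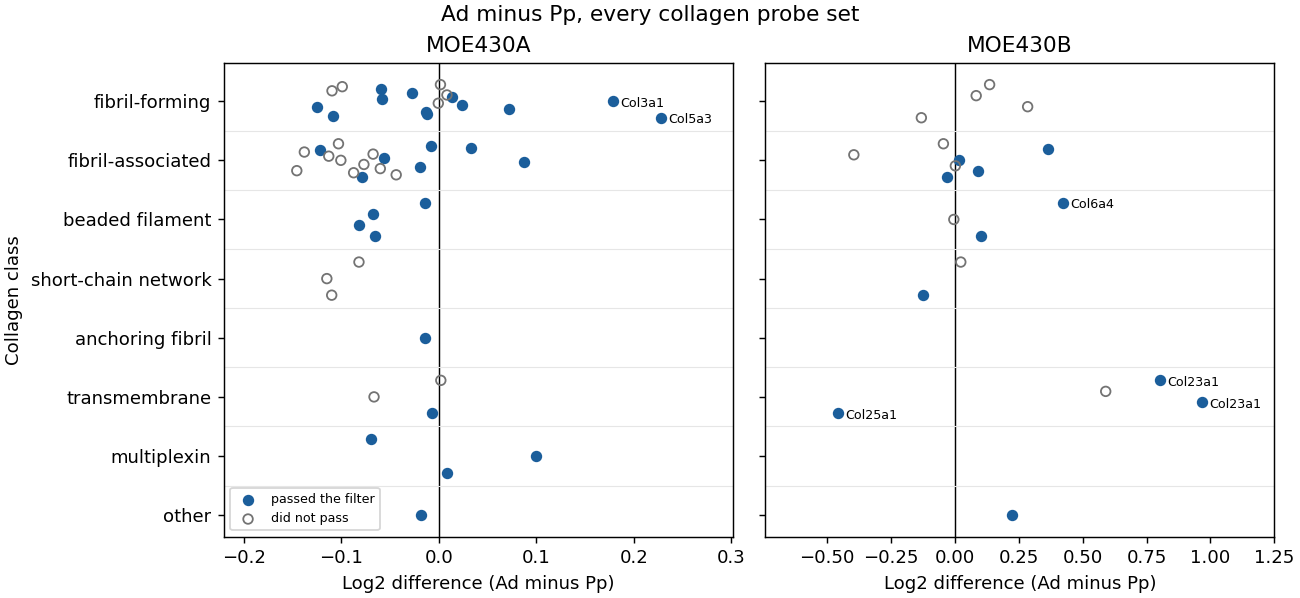
Log2 difference, Ad minus Pp, of every collagen probe set by class, MOE430A on the left and MOE430B on the right (filled points passed the filter, open points did not; the 2 axes differ in range). Tested points on MOE430A lie between -0.12 and 0.23, and the Col23a1 points on MOE430B reach 0.97; none was called.

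Genes that make, cross-link, bind and degrade collagen were counted from lists, each gene by its brightest probe set. Among modifying enzymes and chaperones on MOE430A, 4 of 13 tested genes were called lower in the fragments and 0 higher, against 5.19% and 4.6% of all tested probe sets of that array, which is also the background of the list counts that follow. P4ha2, a prolyl hydroxylase subunit, read 607 and 634 in Ad, 570 and 741 in Pp and 2227 in the whole embryo (log2 difference -1.41, limma adjusted p = 0.00248). Serpinh1, the collagen chaperone HSP47, read 2613 to 2960 in the fragments against 5791 in the whole embryo (limma adjusted p = 0.00269). The others called were Crtap, a partner of prolyl hydroxylation (log2 difference -0.59), and Sparc, a collagen-binding matrix protein (-0.56). The count was 2 without either Ad array and 7 without Pp replicate 2.

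Of the processing and cross-linking genes 2 of 4 were called, both lower in the fragments. Lox, the lysyl oxidase that starts cross-links, read 552 and 603 in Ad, 629 and 604 in Pp and 2560 in the whole embryo (-1.65, limma adjusted p = 0.000511), and its relative Loxl1 gave -0.90. Of the fibril-binding proteins 3 of 6 were called lower in the fragments: Bgn, a small proteoglycan, at 1048 to 1083 in the fragments against 3549 in the whole embryo, Fn1 (fibronectin) and Tgfbi. That count was 1 without either Ad array. Among the collagen-degrading proteases and their inhibitors 3 of 5 were called lower in the fragments: Mmp2, a gelatinase, at 960 to 1440 in the fragments against 4535 in the whole embryo, Ctsk (cathepsin K) and Timp1, a protease inhibitor. Without Pp replicate 1 that count was 5. Among the receptors 0 of 6 were called by limma on MOE430A, with 1 unadjusted p under 0.05, and 1 was called without either Pp array. The largest differences there were -0.31 for Itgb1, the shared chain of the collagen-binding integrins (adjusted p = 0.0710), and -0.15 for Mrc2, an uptake receptor for collagen. On MOE430B 1 of 5 was (1.81% of all tested probe sets were called lower there), Ddr2, a receptor kinase for fibrillar collagen, at 49.4 to 55.1 in the fragments against 463 in the whole embryo (-2.91, limma adjusted p = 0.00132). The Ddr2 probe set on MOE430A read 1296 to 1498 in the fragments against 1455 in the whole embryo. Between Ad and Pp 0 of 34 tested genes of these lists were called by limma on MOE430A and 0 of 13 on MOE430B, with 1 unadjusted p under 0.05 on each. The 2 largest differences per list on MOE430A were 0.24 for Sparc and -0.12 for P4ha2, -0.15 for Loxl4 and -0.14 for Lox, -0.11 for Dcn and -0.10 for Thbs2, 0.14 for Mmp2 and 0.12 for Timp2, and -0.08 for Mrc2 and -0.07 for Lair1.

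Most markers on the list for decidua and uterine stroma were also lower in the fragments than in the whole embryo. On MOE430A 8 of 11 tested markers of that list (13 on the array) were called lower in the fragments (5.19% of all tested probe sets were), with a summed signal of 10147 to 11970 in the fragments against 44071 in the whole embryo. Of the 8, 4 had a fragment mean below the filter signal and passed it through the whole embryo, so the count of 8 is a description. Those called with a fragment mean above the filter signal were Hoxa11, Vim, Acta2 and Igfbp4. Over all such probe sets 4.69% were called lower. With the filter at the 60th percentile 4 were called. Pgr, Esr1 and Des, also with fragment means above the filter signal, were tested and not called. They were not lower in the fragments, with log2 differences of 0.06, 0.15 and 0.12. On MOE430B all 3 tested markers were called lower (1.81% of all were), with summed signals of 268 to 370 and 5360. The decidual prolactin Prl8a2 read 254 and 564 in Ad, 241 and 267 in Pp and 6063 in the whole embryo. Prl3c1, which did not pass the filter, read 94.5, 812, 96.9, 86.9 and 4066 in the same order. Hand2 also did not pass it on MOE430A, and on MOE430B it read 110 to 144 in the fragments against 2223 in the whole embryo. Among the genes called lower in the fragments on MOE430A, the highest fragment was not the same throughout. It was Pp replicate 1 for Col6a1, Col6a2, Hoxa10, Hoxa11, Wnt4 and Acta2. It was Ad replicate 1 for Col6a3, Col14a1 and Bmp2, and Pp replicate 2 for Igfbp4. All fragments of Col1a1 and Col5a2 lay below the filter signal. Ad replicate 2 was the highest fragment for Prl8a2, Prl3c1 and Vim, and also for Col1a1, Col1a2, Col3a1 and Col5a2 by their brightest probe sets. Leaving out that array lowered the number of collagen calls, and so did leaving out Ad replicate 1. In both cases the lost calls included both Col18a1 probe sets, which were higher in the fragments. Col3a1 was still called with any 1 fragment left out. The part of these markers in the collagen differences was not tested.

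Markers of other cell types were counted as well. Of 9 endothelial and blood markers on MOE430A, 3 were tested and 0 called by limma (1 unadjusted p under 0.05), with summed signals of 4652 to 5073 in the fragments against 7313 in the whole embryo. Cdh5, a junction protein of endothelium, did not pass the filter and read 212 to 308 in the fragments against 1356 in the whole embryo, at least 2.92-fold above the filter signal. Cd34 did not pass it either and read 312 to 365 against 713, while Tek, Ptprc, Hba-a1 and Alas2 were below the filter signal in every array. Without either Pp array, 1 marker of this list was called. Of 6 extraembryonic ectoderm markers 1 was called lower in the fragments, Hand1, at 477 and 435 in Ad, 471 and 1248 in Pp and 4014 in the whole embryo (log2 difference -2.24, limma adjusted p = 0.0201). That count was 0 without either Ad array, 2 without Pp replicate 1 and 5 without Pp replicate 2. Of the parietal endoderm markers 2 of 5 were called lower in the fragments, Sparc and Lamc1, with sums over the list of 7277 to 10522 and 14397. That count fell when either Ad array was left out. Sparc was also counted among the modifying enzymes and chaperones. Thbd and Plat did not pass the filter. Thbd read 304 to 342 in the fragments against 359 in the whole embryo, and Plat 341 to 432 against 440. The part of these markers in the collagen differences was not tested. The signal ratio of 3′ to 5′ control probe sets for Actb, which reflects RNA integrity and amplification, ranged over the fragments from 3.69 to 4.50, against 5.87 for the whole embryo, on MOE430A, and from 3.51 to 3.79, against 4.22, on MOE430B. Its part in the fragment differences was not tested.

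**Figure D5:**
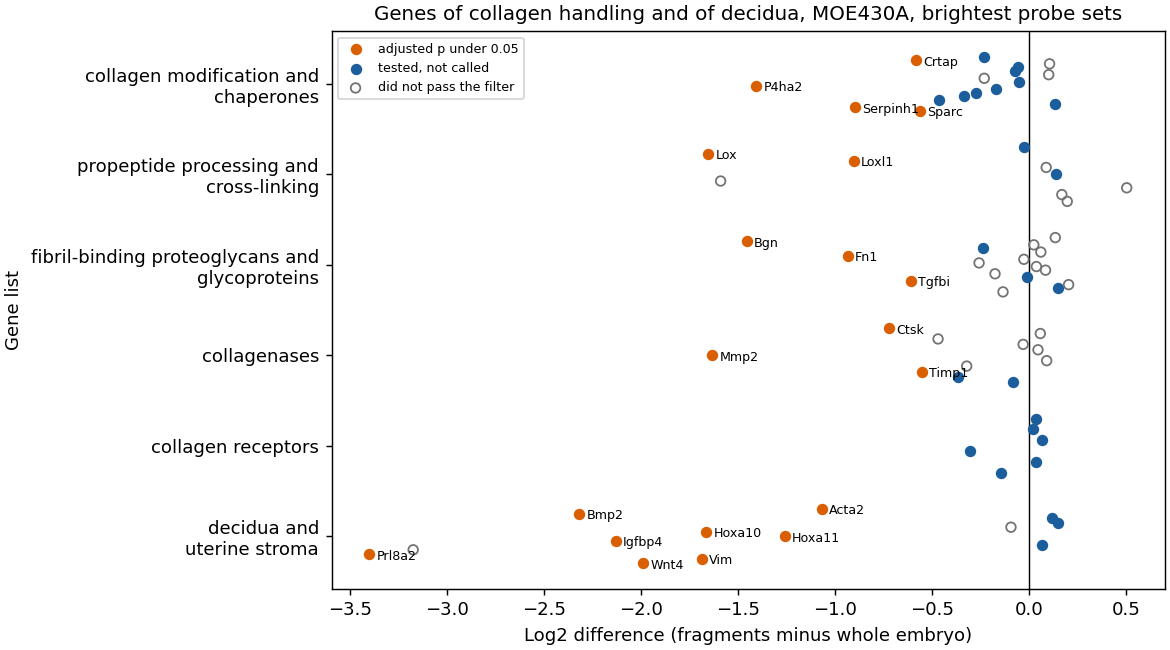
Log2 difference, fragments minus whole embryo, on MOE430A for genes that handle collagen and for decidual markers, 1 point per gene from its brightest probe set, with called genes in orange, tested genes without a call in blue and genes that did not pass the filter as open circles. Lox lies at -1.65 and P4ha2 at -1.41, and no called gene lies to the right of 0.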

How the data were processed

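RNA of 10 samples was measured on Affymetrix arrays. The deposited values are probe set signal intensity, not log transformed. The authors used MAS5, per the submitters' processing notes. Its version and scaling target were not given in any source used here. Arrays have no count behind a value, so the number of arrays and the signal over background limit the precision. Each type was fitted alone in R 4.3.3 with limma 3.58.1 (lmFit, eBayes): 64 control probe sets left out, a pseudocount at the 20th percentile of all values, log2, a filter at the 40th percentile of mean log2, arrays centred on the median of kept probe sets, and a term for each kind of sample (2 residual degrees of freedom). Ad was compared with Pp, and the average of both fragment kinds with the whole embryo. Where the fragment mean lay below the filter signal, the fold is the whole embryo's deposited signal over that filter signal, written as "at least". Names come from the platform annotation, which matched RefSeq for all 70 probe sets. The text names every called collagen probe set, the brightest probe set of each tested collagen gene, and of each other list at most 6 called genes; other collagen probe sets and neighbours were named after their values were seen. The members and lists were chosen with earlier results of these data known. The code was tested on simulated data. Same-numbered replicates did not deviate together (correlation -0.242 on MOE430A and -0.0392 on MOE430B, each from 1 pair of differences), so the replicate number was not used in the fit. 14 alternatives were run per array type and comparison.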

Additional observations from a re-analysis of the deposited data

How the results depend on the processing

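Of the 14 called collagen probe sets, 9 were called under every alternative that kept them, and none changed sign between fragments and whole embryo. The 9 include 4 probe sets, of Col1a1, Col5a2 and Col14a1, that were tested only because the whole embryo was high. Their calls and sign had to hold, so they do not measure stability. A filter at the 60th percentile tests fewer probe sets and left 7 collagen calls of 13 on MOE430A and 0 of 1 by limma on MOE430B, where 3 had an unadjusted p under 0.05 in the fit as reported. Leaving out 1 fragment gave 10 to 16 and 1 to 2 collagen calls between fragments and whole embryo, and 0 to 2 between Ad and Pp on MOE430A. Over all probe sets, calls between fragments and whole embryo ranged with 1 fragment left out from 274 to 3492 on MOE430A (1328 as reported) and from 101 to 1183 on MOE430B (299), where no filter gave 196. Calls between Ad and Pp ranged from 1 to 806 (23) and from 0 to 131 (15). On MOE430A no centring gave 46 calls between Ad and Pp. On MOE430B a pseudocount at the 40th percentile gave 30, no filter 2, a filter at the 60th percentile 26 and an intensity trend 30. The replicate block gave 865 calls between fragments and whole embryo on MOE430A, with 11 collagens, and 29 between Ad and Pp on MOE430B. The crossed pairing, added after seeing the data, gave 47 calls between Ad and Pp on MOE430A and 27 on MOE430B. Without Pp replicate 2, the Ad minus Pp difference of Col3a1 turned to -0.10, and without Pp replicate 1 it was 0.46. A lone array left in a group was assumed to vary like the others. The cause of these changes was not tested. Probe sets below the filter signal have no measured fold, and 30 of the 70 collagen probe sets were too dim to test.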
